A study of Rattus norvegicus with 18 samples.

Results

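The ventral tegmental area (VTA) of 6 rats taken 24 h after a chronic ethanol diet ended (withdrawal) was set against that of 6 rats taken at 0 h of withdrawal (chronic ethanol). These are 12 of the 18 libraries in the series, and their labels place them in the groups. All animals were wild-type adult male Sprague-Dawley rats, and both groups had 9% v/v ethanol in a Lieber-DeCarli liquid diet for 15 or 16 days. The withdrawal rats are numbered 13 to 18 and the chronic ethanol rats 7 to 12. The other 6 rats (1 to 6) had the control diet without ethanol, and their values are given only beside the rest. Each library is stranded messenger RNA of tissue dissected from a single brain, so fewer cells of a type and less RNA per cell cannot be told apart. Blood ethanol levels and withdrawal signs were not used here.

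The VTA is where midbrain dopamine neurons that signal reward have their cell bodies, with GABA and glutamate neurons, astrocytes, oligodendrocytes and microglia around them. Ethanol raises inhibitory and lowers excitatory transmission, and its removal after long intake leaves the brain in an excitable state. Type I interferon is a cytokine that acts through the kinases Jak1 and Tyk2 on a factor that contains Irf9 and binds response elements in the promoters of antiviral genes. Cholesterol, which the brain makes locally, is synthesised from acetyl-CoA by a chain of enzymes under the control of sterol-sensing transcription factors.

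Libraries held 29.6 to 45.1 M counts, with a mean of 36.1 ± 4.20 M in withdrawal rats and 39.6 ± 5.20 M in chronic ethanol rats (SD, n = 6 each). Levels are given as CPM, counts scaled to a common library size and composition, and 3 counts stood for 0.0665 to 0.101 CPM. Th, the tyrosine hydroxylase that limits dopamine synthesis, had a lowest, median and highest level of 17.6, 362 and 628 CPM in withdrawal rats and 69.0, 492 and 730.3 CPM in chronic ethanol rats. Slc6a3, the dopamine transporter, was lowest in withdrawal rat 17, at 2.56 CPM, and in ethanol rat 8, at 68.2 CPM. Th and Slc6a3 were thus nearly absent from withdrawal rat 17. The 19 dopamine neuron identity genes summed to at least 609 CPM in withdrawal rats and at least 494 CPM in chronic ethanol rats. The mean log2 CPM of the tested identity genes was at least 2.33 in withdrawal rats and 3.06 in chronic ethanol rats. Withdrawal rat 13 stood apart from the others. Tph1, which starts melatonin synthesis in the pineal gland, had 14990.0 CPM in that rat, against 1.21 to 7.07 CPM in the other 5 withdrawal rats and 0.547 to 7.43 CPM in chronic ethanol rats. The 13 listed pineal markers summed to 18320.0 CPM there, where no other library exceeded 19.5 CPM. Counts, lists and most genes are therefore given with all 12 rats and without withdrawal rat 13. Of the tested genes named below, Bdnf and Tm7sf2 changed direction when that rat was left out. Ethanol rat 8 had 80.1 CPM of the hindbrain position genes, which summed to at most 5.85 CPM in the withdrawal rats and 0.945 CPM in the other chronic ethanol rats. Ethanol rat 7 had 801 CPM of hypothalamus and thalamus markers, against 254 to 385 CPM in the other chronic ethanol rats.

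With all 12 rats, no gene passed the test. Of 17637 genes, 0 had a Benjamini-Hochberg adjusted p under 0.05 by edgeR's quasi-likelihood test (0% of genes), and the lowest adjusted p was 0.0709. By unadjusted p under 0.05, 1655 genes (9.38%) were higher and 1049 (5.95%) lower in withdrawal, and DESeq2 called 294 genes where limma-voom called 0. At an adjusted p under 0.10, a looser limit used below to describe the data, 55 genes were higher (0.312%) and 28 lower (0.159%). Without withdrawal rat 13, 22 of 17751 genes passed, 10 of them higher (0.0563%) and 12 lower (0.0676%) in withdrawal. At the looser limit 237 passed (1.34%), 139 higher (0.783%) and 98 lower (0.552%). Of the 22, 12 had an adjusted p under 0.10 with all rats as well. The withdrawal and chronic ethanol rats did not overlap in 143 genes that were higher in withdrawal (0.811%) and 96 that were lower (0.544%), and without withdrawal rat 13 in 205 (1.15%) and 165 (0.93%). All 83 genes at the looser limit with all rats kept their direction and that limit without withdrawal rat 13.

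The 22 calls rest on few animals. With withdrawal rat 13 left out and a second rat as well, the number of called genes was 0 without withdrawal rat 17, 37 without withdrawal rat 18, and 6, 4 and 2 without withdrawal rats 14, 15 and 16. It was 135 without ethanol rat 11, 3 without ethanol rat 7, 8 without ethanol rat 8, 2 without ethanol rat 9 and 1 without ethanol rat 12. Control rats enter through the shared spread, and leaving out control rat 1, 3 or 4 gave 8, 34 or 14. An edgeR fit on the withdrawal and chronic ethanol libraries alone called 0 genes, and so did a fit with the first index of the library names as a term. Control rats 1 to 6 and ethanol rats 7 and 8 share 1 first index, ethanol rats 9 to 12 and withdrawal rats 13 to 16 another, and withdrawal rats 17 and 18 a further one. No withdrawal rat shares a first index with a control rat, so differences between these groups cannot be told apart from the index. Genes at an unadjusted p under 0.05 numbered 2362 in the fit on 2 groups, 1406 with the index and 1859 without withdrawal rat 17. Below, "rose" and "fell" are used only of the 22 genes, in the fit without withdrawal rat 13.

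The gene with the lowest adjusted p was Nkain4 (chr3:176444545-176465197 in Rnor_6.0, as are the other gene positions), which encodes a membrane protein that interacts with the sodium-potassium ATPase. It had 9.84, 15.7 and 19.2 CPM (lowest, median, highest) in withdrawal rats, against 22.6, 25.4 and 32.7 CPM in chronic ethanol rats and 20.7, 21.2 and 21.7 CPM in control rats. All 6 withdrawal rats were below all chronic ethanol rats and all control rats. Nkain4 fell, with a log2 change of -0.69 ± 0.09 (SE, adjusted p = 0.0151, edgeR) without withdrawal rat 13 and -0.79 ± 0.13 (adjusted p = 0.0709) with it. Ndrg2 (chr15:28305820-28314459), an abundant gene of astrocytes, had 882, 1306 and 1547 CPM in withdrawal rats and 1733, 1865 and 2194 CPM in chronic ethanol rats. The groups did not overlap, and control rats had 1437 to 1742 CPM. Ndrg2 fell, with a log2 change of -0.49 ± 0.07 (adjusted p = 0.0239, edgeR) without withdrawal rat 13 and -0.58 ± 0.10 (adjusted p = 0.0709) with it.

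**Figure D1:**
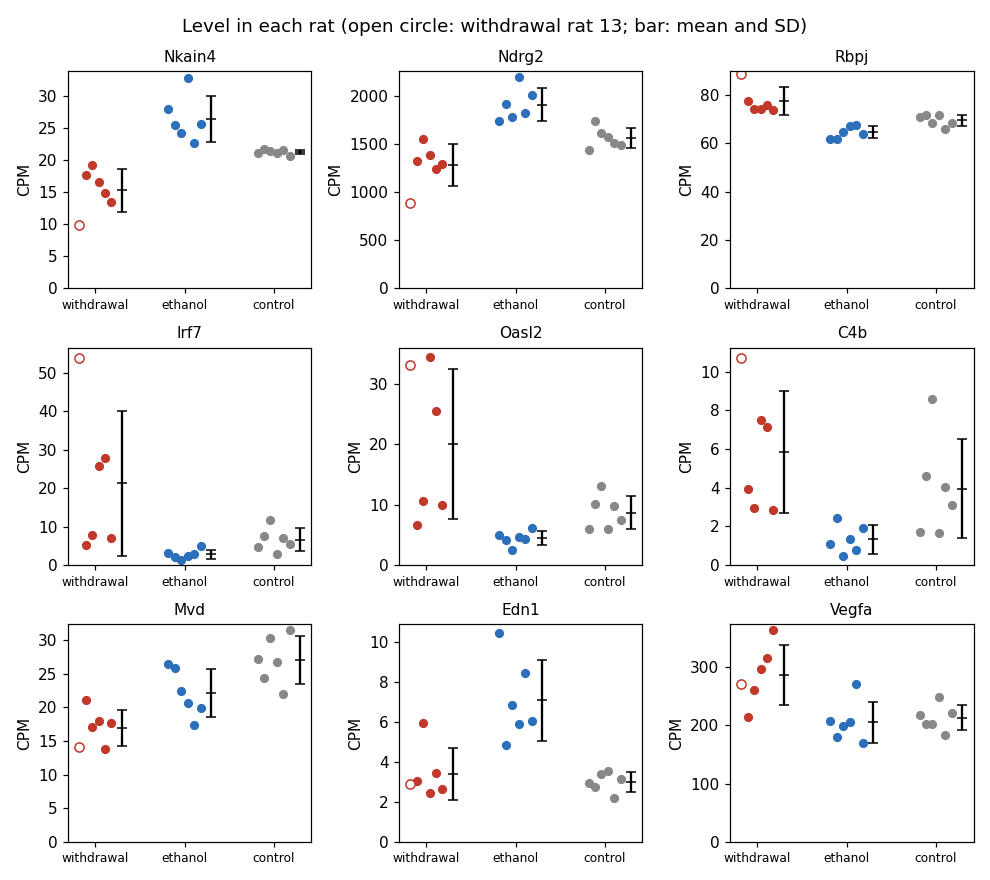
Level in CPM (vertical axis, from 0) of 9 genes in each withdrawal, chronic ethanol and control rat, with the mean and SD over 6 rats beside the points and withdrawal rat 13 as an open circle. Nkain4 and Ndrg2 are lower in every withdrawal rat than in any chronic ethanol rat, and Irf7, Oasl2 and C4b are higher in every withdrawal rat.

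Enzymes of metabolism made up part of the called genes. Odc1, the first enzyme of polyamine synthesis, fell by 0.34, Oga, which removes O-linked N-acetylglucosamine from proteins, fell by 0.26, and Grhpr, which reduces glyoxylate, fell by 0.34. In these 3 genes withdrawal rat 13 was above all chronic ethanol rats, at 126, 360.2 and 28.9 CPM, while the withdrawal medians were 70.6, 238 and 19.7 CPM. Chronic ethanol medians were 90.9 CPM for Odc1, 293 CPM for Oga and 23.7 CPM for Grhpr. Taldo1, the transaldolase of the pentose phosphate pathway, rose. Its levels were 96.6, 105 and 238 CPM in withdrawal rats and 79.3, 82.7 and 90.3 CPM in chronic ethanol rats, with no overlap (log2 change 0.30 ± 0.05 without withdrawal rat 13, which held the 238 CPM).

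Among regulators of transcription and translation, Rbpj and Atf7 rose and Tfdp1 and Paip2b fell. Rbpj, the DNA-binding partner of Notch, had 73.8, 75.2 and 88.7 CPM in withdrawal rats and 61.8, 64.2 and 67.5 CPM in chronic ethanol rats. All withdrawal rats were higher (log2 change 0.22 ± 0.04, adjusted p = 0.0299, edgeR). Atf7, a factor of the CREB and ATF family, had 48.1, 55.6 and 58.8 CPM in withdrawal rats and 42.3, 46.9 and 48.1 CPM in chronic ethanol rats, with a log2 change of 0.30 ± 0.05. Tfdp1, the dimer partner of E2F factors, had a log2 change of -0.24 ± 0.04. Paip2b, which binds the poly(A)-binding protein and restrains translation, had a log2 change of -0.27 ± 0.05 and no overlap between the groups. Ascc3, a helicase, rose by 0.30 and Akap8l, a nuclear anchoring protein, fell by 0.24. Akap8l had 305 CPM in withdrawal rat 13, above all chronic ethanol rats at 183 to 203 CPM, while the other withdrawal rats, at 159.5 to 182 CPM, were below them.

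Slc12a2, the sodium-potassium-chloride importer that raises chloride inside cells and so sets how GABA acts, rose. It had 255, 511 and 602 CPM in withdrawal rats, against 354, 394 and 417 CPM in chronic ethanol rats. Withdrawal rat 13 held the 255 CPM, and the other 5 withdrawal rats were above all chronic ethanol rats (log2 change 0.41 ± 0.08, adjusted p = 0.0482, edgeR, and 0.28 ± 0.14, adjusted p = 0.345, with all rats). Of the 8 genes of GABA synthesis and transport, its list, 2 had a positive and 6 a negative log2 change with all rats (median -0.20). Without withdrawal rat 13, 3 were positive and 5 negative (median -0.070). Chloride was not measured, and which cells held Slc12a2 was not tested. Edil3, a secreted ligand of integrins, and Efhd1, a calcium-binding protein of mitochondria, showed the same layout as Slc12a2, with 211 and 39.7 CPM in withdrawal rat 13. The other withdrawal rats had 478 to 597 CPM of Edil3 and 69.1 to 79.2 CPM of Efhd1, against 388 to 458 CPM and 43.9 to 61.7 CPM in chronic ethanol rats. Hmcn1, an extracellular matrix protein, rose by 0.68 ± 0.12 on the log2 scale, and with all rats its log2 change was 0.72 ± 0.12 (adjusted p = 0.0709, edgeR). The called genes also held Trim30d and Oasl2, which rose, and Amz2, Dipk1c and LOC108352150, which fell by 0.25, 0.62 and 0.70.

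**Figure D2:**
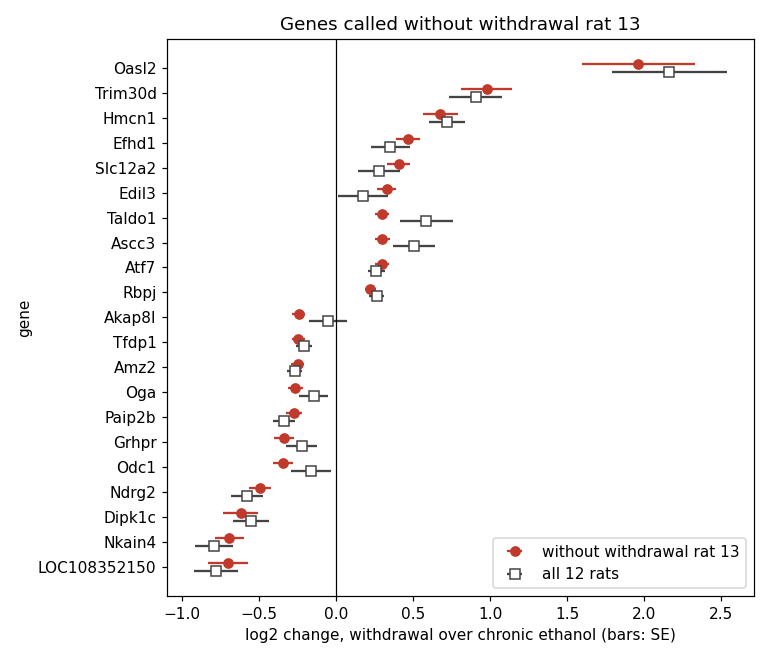
Log2 change in withdrawal over chronic ethanol (horizontal axis, bars show the SE) of 21 of the 22 genes called without withdrawal rat 13, with that rat left out (filled circles) and with all 12 rats (open squares). The values run from -0.70 for LOC108352150 to 1.96 for Oasl2, and the SE is wider with all rats for genes such as Akap8l, Taldo1 and Edil3.

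Interferon induced genes were higher in withdrawal rats as a group. The list holds 54 genes, of which 52 could be tested, and all 52 had a positive log2 change both with all rats and without withdrawal rat 13, where 53.3% and 47.2% of all genes did. The median log2 change of the list was 1.00 with all rats and 0.86 without withdrawal rat 13, beside 0.016 and -0.0096 for all genes. With all rats, 22 members were higher at an adjusted p under 0.10 (0.312% of all genes), and 28 were without withdrawal rat 13 (0.783%). At an unadjusted p under 0.05, 49 members were higher with all rats (9.38% of all genes) and 47 without that rat (7.14%). One member, Oasl2, passed the adjusted limit of 0.05. For 21 members the groups did not overlap with all rats (0.811% of all genes were so placed). Of the untested members, Oas3 had at most 0.243 CPM, and Ifit1 at most 12.4 CPM in any library.

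The promoters of 4 of these genes are shown because they carry the letters of the interferon response element. Each is the RefSeq sequence of GRCr8 from 250 bases before to 50 after the start of the gene, on the strand of the gene, with matches to the element on either strand in capitals. The element searched was GAAA, any 2 bases, then GAAA, and overlapping matches were counted. They lie at chr1:205799974-205800273 (minus strand) for Irf7, chr12:47383136-47383435 (minus) for Oasl2, chr2:243328473-243328772 (plus) for Ifi44l and chr11:78407884-78408183 (plus) for Parp14.
Irf7: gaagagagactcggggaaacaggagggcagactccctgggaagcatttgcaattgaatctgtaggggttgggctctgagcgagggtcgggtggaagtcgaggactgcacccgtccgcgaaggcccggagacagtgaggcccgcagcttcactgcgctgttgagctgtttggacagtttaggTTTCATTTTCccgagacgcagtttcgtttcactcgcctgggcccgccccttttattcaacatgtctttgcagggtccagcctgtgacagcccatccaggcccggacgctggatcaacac
Oasl2: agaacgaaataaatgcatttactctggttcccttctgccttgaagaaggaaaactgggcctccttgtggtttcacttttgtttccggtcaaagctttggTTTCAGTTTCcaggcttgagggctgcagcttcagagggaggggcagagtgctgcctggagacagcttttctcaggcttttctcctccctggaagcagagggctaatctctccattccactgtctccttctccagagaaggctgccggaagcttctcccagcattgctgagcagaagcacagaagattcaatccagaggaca
Ifi44l: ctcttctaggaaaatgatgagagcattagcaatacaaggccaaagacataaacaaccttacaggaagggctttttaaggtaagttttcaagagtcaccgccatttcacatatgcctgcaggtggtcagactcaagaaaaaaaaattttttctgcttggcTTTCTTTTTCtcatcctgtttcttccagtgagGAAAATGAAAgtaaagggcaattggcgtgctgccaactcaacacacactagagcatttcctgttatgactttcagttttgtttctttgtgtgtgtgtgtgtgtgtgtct
Parp14: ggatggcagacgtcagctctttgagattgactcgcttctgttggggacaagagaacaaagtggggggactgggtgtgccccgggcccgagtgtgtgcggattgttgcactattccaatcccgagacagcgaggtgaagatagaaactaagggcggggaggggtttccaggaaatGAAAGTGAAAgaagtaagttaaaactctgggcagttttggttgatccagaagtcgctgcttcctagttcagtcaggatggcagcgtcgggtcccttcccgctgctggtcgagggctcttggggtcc
The match began 69 bases before the start site in Irf7, 151 in Oasl2, 76 in Parp14, and 91 and 59 in Ifi44l. Of the 43 list members with a promoter in the table, 28 (65.1%) held a match, against 378 of 12905 promoters of tested genes (2.93%). A match is a string of letters and was not tested as a binding site. The share describes a list of interferon induced genes and is not a result of these rats. A like search for a sterol response element (TCAC, any base, then CCAC) found it in 0 of 15 cholesterol synthesis promoters. It was in 0 of 6 promoters of cholesterol regulation and uptake genes, and in 146 of 12905 promoters of tested genes (1.13%).

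Irf7 (chr1:214249388-214252909), the transcription factor that amplifies the interferon response, had 5.08, 16.8 and 53.9 CPM in withdrawal rats, against 1.41, 2.57 and 4.81 CPM in chronic ethanol rats and 2.97, 6.20 and 11.8 CPM in control rats. Every withdrawal rat was above every chronic ethanol rat, and rats 13, 16 and 17 had 53.9, 25.8 and 27.9 CPM where rats 14, 15 and 18 had 5.08, 7.71 and 7.12 CPM. The log2 change was 2.93 ± 0.53 (adjusted p = 0.0709, edgeR) with all rats and 2.40 ± 0.46 (adjusted p = 0.0503) without withdrawal rat 13. Irf9, part of the factor that binds the response element, had 23.3, 31.3 and 50.6 CPM in withdrawal rats and 17.0, 19.6 and 22.4 CPM in chronic ethanol rats, with no overlap (log2 change 0.83 ± 0.17, and 0.70 ± 0.15 without withdrawal rat 13).

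The antiviral effectors followed the same rats. Oasl2 (chr12:47470074-47483131), of the oligoadenylate synthetase family, had 6.65, 18.0 and 34.4 CPM in withdrawal rats, against 2.54, 4.53 and 6.06 CPM in chronic ethanol rats and 5.90, 8.59 and 13.0 CPM in control rats. It rose by 1.96 ± 0.37 on the log2 scale (adjusted p = 0.0482, edgeR) without withdrawal rat 13, the largest rise among the called genes. Oas1a, a synthetase that activates RNase L, had 2.14, 4.36 and 9.70 CPM in withdrawal rats and 0.216, 0.912 and 1.93 CPM in chronic ethanol rats, with no overlap (log2 change 2.30 ± 0.49, adjusted p = 0.0792, edgeR, and 2.04 ± 0.48, adjusted p = 0.0730, without withdrawal rat 13). Parp14, an ADP-ribosyltransferase, had 7.41, 12.2 and 16.9 CPM in withdrawal rats and 5.53, 6.43 and 6.66 CPM in chronic ethanol rats. Its groups did not overlap (log2 change 0.97 ± 0.18, adjusted p = 0.0709, edgeR, and 0.85 ± 0.16, adjusted p = 0.0503, without withdrawal rat 13).

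Rsad2 (viperin), which makes a chain-ending nucleotide, had 3.17, 8.87 and 17.3 CPM in withdrawal rats and 2.38, 2.72 and 3.38 CPM in chronic ethanol rats. Only its lowest withdrawal rat, number 18, overlapped (log2 change 1.69 ± 0.32, and 1.39 ± 0.28 without withdrawal rat 13). Bst2 (tetherin), which holds virus particles at the membrane, had a log2 change of 1.22 ± 0.28, or 1.17 ± 0.29 without withdrawal rat 13, and no overlap. Eif2ak2, the RNA-sensing kinase PKR, had 35.5, 46.0 and 62.4 CPM in withdrawal rats and 29.8, 31.4 and 35.7 CPM in chronic ethanol rats (log2 change 0.57 ± 0.12, and 0.47 ± 0.11 without withdrawal rat 13). Isg15, a ubiquitin-like modifier, and Usp18, which removes it, had log2 changes of 1.80 ± 0.42 and 2.25 ± 0.50, with 5 of 6 withdrawal rats above all chronic ethanol rats for each. Without withdrawal rat 13 these were 1.70 ± 0.43 and 1.94 ± 0.48. Ifi44l had a log2 change of 1.95 ± 0.37, or 1.67 ± 0.34 without withdrawal rat 13, and no overlap. Outside the list, Slfn4, of the Schlafen family, had 2.68, 7.46 and 23.1 CPM in withdrawal rats and 0.384, 0.980 and 2.15 CPM in chronic ethanol rats, the groups again apart (log2 change 3.26 ± 0.63, and 2.82 ± 0.58 without withdrawal rat 13). Trim30d, of the tripartite motif family, rose by 0.98 ± 0.17 (adjusted p = 0.0299, edgeR, without withdrawal rat 13), with 4.03, 5.06 and 7.48 CPM in withdrawal rats and 2.21, 2.85 and 3.35 CPM in chronic ethanol rats.

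The summed level of the 54 interferon induced genes was 1318, 1155 and 1000.0 CPM in withdrawal rats 13, 16 and 17 and 680, 634 and 612 CPM in withdrawal rats 15, 18 and 14. In chronic ethanol rats it was 451 to 569 CPM, below every withdrawal rat, and in control rats 544 to 878 CPM. Against them, the list's median log2 change was 0.53 in withdrawal and -0.41 in chronic ethanol, in contrasts that share the control rats and the ethanol or withdrawal rats used here. The median stayed between 0.72 and 1.10 when single rats were left out, when the index term was added, and without rats 5, 8, 13 and 17 together. Among the 4 and 4 rats that share a first index (withdrawal 13 to 16, chronic ethanol 9 to 12) the median difference was 0.95, and 0.73 without withdrawal rat 13.

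**Figure D3:**
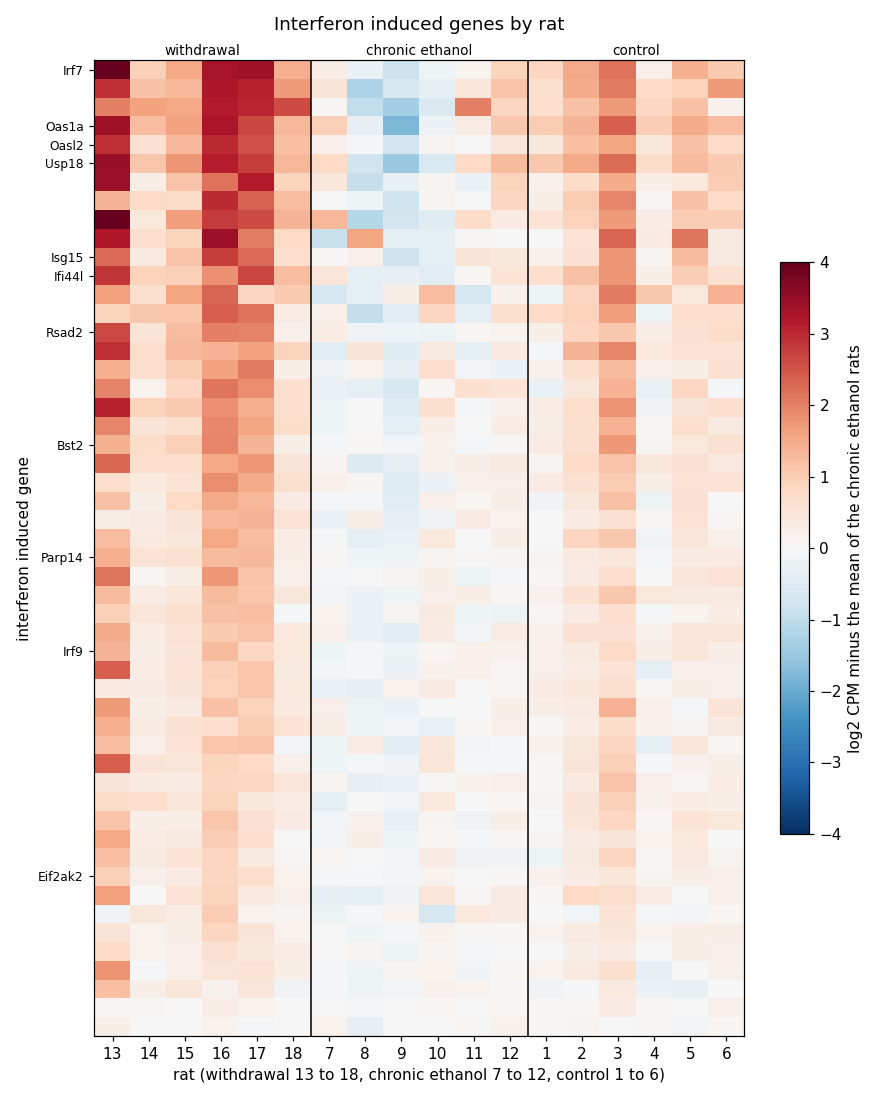
Level of the 52 tested interferon induced genes (rows, ordered by their log2 change without withdrawal rat 13, those named in the text labelled) in each rat (columns, withdrawal, chronic ethanol, control), as log2 CPM minus the mean of the chronic ethanol rats, with red above and blue below that mean. Withdrawal rats 13, 16 and 17 are darkest, and control rat 3 is the darkest control rat.

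Other cells that carry such genes were measured beside them. The 12 microglia markers summed to 273 to 501 CPM in withdrawal rats and 349 to 627 CPM in chronic ethanol rats. Of the 11 tested, 0 had an unadjusted p under 0.05, where 15.3% of all genes did in either direction. With 11 genes, this does not show that the cells were unchanged. The 10 markers of blood and meningeal macrophages found in the files, of 11 listed, summed to 24.6 to 27.4 CPM in withdrawal rats and 14.2 to 30.9 CPM in chronic ethanol rats, and no library had more than 1 of them at 0. One of these, S100a9, a calcium-binding protein of neutrophils and monocytes, had 0.242, 0.657 and 1.46 CPM in withdrawal rats and 0.0959, 0.192 and 0.222 CPM in chronic ethanol rats, with no overlap (log2 change 2.07 ± 0.44, adjusted p = 0.0793, edgeR). Its part in the difference of the interferon induced genes was not tested.

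Receptors, kinases and inhibitors of the interferon pathway had log2 changes from -0.33 to 0.19 over 9 genes with all rats, and from -0.56 to 0.14 without withdrawal rat 13. At an unadjusted p under 0.05, 2 were higher with all rats (9.38% of all genes) and 3 without that rat (7.14%). Socs1, an inhibitor of the kinases, was lower at that limit without withdrawal rat 13 (log2 change -0.56 ± 0.23, adjusted p = 0.288, edgeR, and -0.33 ± 0.25 with all rats). Class I antigen presentation genes had a median log2 change of 0.47 over 16 tested genes, of which 9 were higher at an unadjusted p under 0.05 (9.38% of all genes). Without withdrawal rat 13 the median was 0.18, with 5 such genes (7.14%). Tap1, the peptide transporter of this pathway, had 5.50, 8.33 and 12.3 CPM in withdrawal rats and 4.27, 4.63 and 5.52 CPM in chronic ethanol rats, and 5 of 6 withdrawal rats were above all chronic ethanol rats (log2 change 0.88 ± 0.20, adjusted p = 0.0953, edgeR, and 0.76 ± 0.20 without withdrawal rat 13). Nlrc5, the transactivator of class I genes, had a log2 change of 0.87 ± 0.24, and 0.59 ± 0.19 without withdrawal rat 13. RT1-A1, a class I heavy chain, had 154 CPM in withdrawal rat 13, where the other withdrawal rats had 35.6 to 100.3 CPM, against 24.0 to 39.4 CPM in chronic ethanol rats. Near-identical class I copies make its counts uncertain. B2m, the light chain, had 698 CPM in withdrawal rat 13 and overlapped between the groups otherwise, at 381 to 472 CPM against 299 to 437 CPM.

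Class II genes rested on withdrawal rat 16 in part. RT1-Bb, a class II chain, had 26.9 CPM there, against 1.12 to 5.02 CPM in the other withdrawal rats and 0.240 to 2.95 CPM in chronic ethanol rats. All 5 tested members had a positive log2 change, 1 of them at an unadjusted p under 0.05 (9.38% of all genes). Among complement genes, C4b, the component C4, had 2.82, 5.52 and 10.7 CPM in withdrawal rats and 0.455, 1.20 and 2.45 CPM in chronic ethanol rats, with no overlap (log2 change 2.13 ± 0.48, adjusted p = 0.0861, edgeR, and 1.87 ± 0.46 without withdrawal rat 13). Its neighbouring copy C4a had 0 counts in all libraries, so how reads were split between them is uncertain. Cfb, factor B, was likewise apart, at 12.9, 16.8 and 23.8 CPM in withdrawal rats and 7.84, 9.27 and 12.1 CPM in chronic ethanol rats (log2 change 0.89 ± 0.26, and 0.90 ± 0.28 without withdrawal rat 13). C3 overlapped, and 3 of 19 tested complement genes were higher at an unadjusted p under 0.05, beside 9.38% of all genes.

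Relb, a subunit of the alternative NF-kB pathway, had 4.12, 5.51 and 7.65 CPM in withdrawal rats and 2.71, 3.36 and 3.83 CPM in chronic ethanol rats. The groups did not overlap (log2 change 0.76 ± 0.15, adjusted p = 0.0733, edgeR, and 0.65 ± 0.14, adjusted p = 0.0584, without withdrawal rat 13). Cxcl10, a chemokine induced by interferon, had 0.173, 1.28 and 2.92 CPM in withdrawal rats and 0.111, 0.341 and 0.360 CPM in chronic ethanol rats, and 5 of 6 withdrawal rats were above all chronic ethanol rats. Over 27 tested innate immune receptors and cytokines the median log2 change was 0.16, with 6 higher at an unadjusted p under 0.05 (9.38% of all genes). Without withdrawal rat 13 the median was 0.093 with 3 such genes, a share near the 7.14% of all genes. The classical cytokines Il6 and Tnf were too low to test, at no more than 0.404 and 0.0260 CPM in any library.

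Genes of cholesterol synthesis were lower in withdrawal rats, by a small amount, and none passed the test. Of 20 tested enzymes, 18 had a negative log2 change with all rats and 20 without withdrawal rat 13. At an unadjusted p under 0.05, 10 and 11 were lower, where 5.95% and 6.81% of all genes were. The median log2 change was -0.28 with all rats and -0.18 without withdrawal rat 13, and -0.10 with the first index as a term and that rat out. Among rats that share a first index the median difference was -0.25, and -0.094 without withdrawal rat 13. The enzymes summed to 1230.0 to 2174 CPM in withdrawal rats, 1812 to 2554 CPM in chronic ethanol rats and 2197 to 2586 CPM in control rats. Withdrawal rat 13 held the 1230.0 CPM, and the other withdrawal rats had 1797 to 2174 CPM.

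Acat2, which joins acetyl-CoA units at the start of the pathway, had 15.6, 22.1 and 29.2 CPM in withdrawal rats and 22.7, 30.2 and 35.8 CPM in chronic ethanol rats, with 4 of 6 withdrawal rats below all chronic ethanol rats (log2 change -0.41 ± 0.13, adjusted p = 0.192, edgeR, and -0.33 ± 0.12 without withdrawal rat 13). Hmgcs1, the cytosolic synthase, had 182, 342 and 438 CPM in withdrawal rats and 329, 445 and 588 CPM in chronic ethanol rats. Mvd, the mevalonate diphosphate decarboxylase, had 13.8, 17.4 and 21.0 CPM in withdrawal rats, 17.3, 21.5 and 26.4 CPM in chronic ethanol rats and 21.9, 26.9 and 31.4 CPM in control rats. All 6 withdrawal rats were below all control rats, with which they share no first index. Of them, 3 were below all chronic ethanol rats (log2 change against chronic ethanol -0.38 ± 0.12, adjusted p = 0.187, edgeR, and -0.33 ± 0.12 without withdrawal rat 13).

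Fdps, the farnesyl diphosphate synthase, and Dhcr7, which makes the last step to cholesterol, had log2 changes of -0.28 ± 0.10 and -0.42 ± 0.16, and of -0.24 ± 0.10 and -0.32 ± 0.14 without withdrawal rat 13. Tm7sf2, a sterol reductase, had 83.2 CPM in withdrawal rat 13. Its log2 change was 0.63 ± 0.48 with that rat and -0.51 ± 0.15 (adjusted p = 0.134, edgeR) without it. Of the regulators, Insig1, which holds the sterol sensor in the endoplasmic reticulum, had 85.4, 153 and 189 CPM in withdrawal rats and 168, 188 and 207 CPM in chronic ethanol rats. Withdrawal rat 13 held the lowest of these values. Fatty acid synthesis genes had 0 of 12 at an unadjusted p under 0.05 (15.3% of all genes in either direction) and a median log2 change of -0.014.

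**Figure D4:**
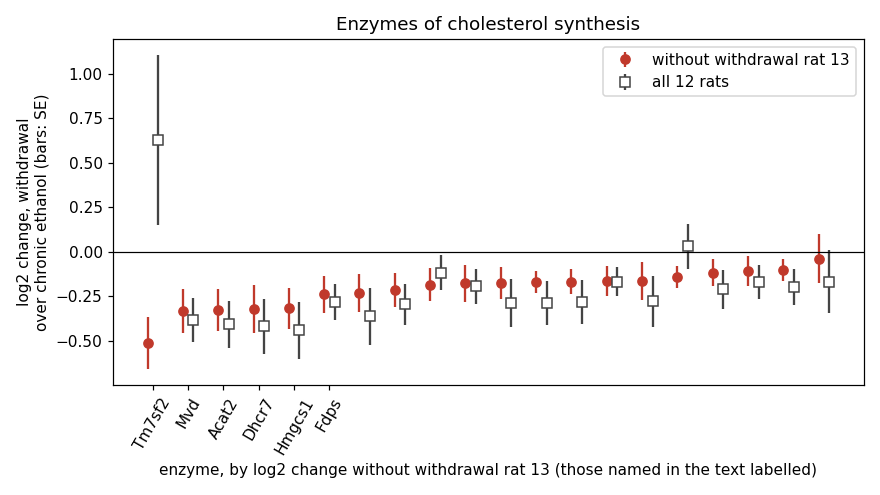
Log2 change in withdrawal over chronic ethanol (vertical axis, bars show the SE) of the 20 enzymes of cholesterol synthesis, ordered by that change and labelled where named in the text, without withdrawal rat 13 (filled circles) and with all 12 rats (open squares). Without that rat all 20 points are below 0, and Tm7sf2 is the enzyme whose point moves from 0.63 with all rats to -0.51.

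Endothelin and hypoxia genes held changes in both directions. Edn1 (chr17:22136814-22143745), the vasoconstrictor peptide endothelin 1, had 2.45, 2.97 and 5.93 CPM in withdrawal rats, against 4.84, 6.41 and 10.4 CPM in chronic ethanol rats and 2.20, 3.05 and 3.52 CPM in control rats. Of the withdrawal rats 5 were below all chronic ethanol rats, and rat 15 overlapped (log2 change -1.06 ± 0.22, adjusted p = 0.0733, edgeR, and -1.02 ± 0.23, adjusted p = 0.0710, without withdrawal rat 13). Ndrg1, a gene induced by low oxygen, had 427, 459 and 511 CPM in withdrawal rats and 316, 336 and 439 CPM in chronic ethanol rats, and 4 of 6 withdrawal rats were above all chronic ethanol rats (log2 change 0.37 ± 0.08, adjusted p = 0.0874, edgeR, and 0.40 ± 0.09, adjusted p = 0.0639, without withdrawal rat 13). Vegfa, the vascular growth factor, had 214, 283 and 363 CPM in withdrawal rats and 169, 202 and 270.2 CPM in chronic ethanol rats (log2 change 0.48 ± 0.12, adjusted p = 0.122, edgeR, and 0.0993 without withdrawal rat 13). Over 20 genes the median log2 change was 0.067, and 0.025 with the first index as a term. At an unadjusted p under 0.05, 6 were higher (9.38% of all genes) and 2 lower, a share near the 5.95% of all genes.

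Among astrocyte markers, Ndrg2 was accompanied by Fgfr3 and Gja1, both lower at an unadjusted p under 0.05 (5.95% of all genes, and 6.81% without withdrawal rat 13), while the other 9 of 12 were not. Fgfr3, a growth factor receptor, had 139.7, 211 and 238 CPM in withdrawal rats and 228, 252 and 282 CPM in chronic ethanol rats (log2 change -0.32 ± 0.09, and -0.23 ± 0.06, adjusted p = 0.0943, edgeR, without withdrawal rat 13). Gja1, the gap junction protein connexin 43, had 361, 414 and 465 CPM in withdrawal rats and 430.4, 508 and 588 CPM in chronic ethanol rats (log2 change -0.27 ± 0.08, and -0.26 ± 0.09 without withdrawal rat 13). The list's median log2 change was -0.23, and -0.098 without withdrawal rat 13, or -0.057 with the first index as a term as well. With all rats, 1 of the 12 had a positive log2 change and 11 a negative one. Without withdrawal rat 13, 4 were positive and 8 negative, and 6 were positive with the first index as a term as well. Control rats had 196 to 214 CPM of Fgfr3 and 364 to 466 CPM of Gja1.

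Oligodendrocyte markers depended on withdrawal rat 13. Ermn, a protein of mature oligodendrocytes, had 145 CPM in that rat, where the other withdrawal rats had 325 to 480.2 CPM, against 265 to 365 CPM in chronic ethanol rats. Without it, 12 of 13 markers had a positive log2 change and 7 were higher at an unadjusted p under 0.05 (7.14% of all genes), and with it 10 and 0 (9.38%). The median log2 change was 0.21 without and 0.053 with that rat. Ermn had a log2 change of 0.37 ± 0.12 (adjusted p = 0.163, edgeR) and Olig2, the lineage transcription factor, of 0.33 ± 0.09 (adjusted p = 0.113), both without withdrawal rat 13. Olig2 is from the separate list of oligodendrocyte precursor markers and had its largest log2 change in that fit. Of the 8 tested precursor markers, 3 had a positive and 5 a negative log2 change without that rat, with a median of -0.027.

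Immediate early genes, which neurons switch on with activity, were dominated by ethanol rat 11. Fos had 8.97, 11.4 and 27.3 CPM in withdrawal rats and 4.35, 9.81 and 123 CPM in chronic ethanol rats. Fosb had 76.8 CPM and Npas4 40.4 CPM in ethanol rat 11, against medians of 1.21 and 1.93 CPM in withdrawal rats and 1.32 and 3.10 CPM in chronic ethanol rats. The median log2 change of the 34 tested genes was -0.37 with all rats and 0.15 without ethanol rat 11. Without that rat, the log2 change of Fos was 0.37 and that of Fosb 0.48, where with it they were -1.11 ± 0.71 and -3.14 ± 1.10.

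No dopamine gene passed the test. Of 12 tested genes of dopamine synthesis, transport and reception, 1 was higher at an unadjusted p under 0.05 with all rats (9.38% of all genes) and 0 without withdrawal rat 13 (7.14%), and of 18 dopamine neuron identity genes 0 were. That gene was Gch1, which makes the cofactor of tyrosine hydroxylase, with 407 CPM in withdrawal rat 13, 5.57 to 26.1 CPM in the other withdrawal rats and 2.48 to 16.4 CPM in chronic ethanol rats. Its log2 change was 2.91 ± 0.92, and 0.35 ± 0.44 without that rat. Drd5, a dopamine receptor, was the 1 gene of these 2 lists whose groups did not overlap (0.544% of all genes were so placed, withdrawal lower). It had 0.703, 0.975 and 1.14 CPM in withdrawal rats and 1.15, 1.20 and 1.97 CPM in chronic ethanol rats, with a log2 change of -0.55 ± 0.30 (adjusted p = 0.383, edgeR), and -0.48 ± 0.32 without withdrawal rat 13. The lists' median log2 changes were -0.13 and -0.32, and -0.15 and -0.20 without withdrawal rat 13, and with the first index as a term the identity list's was -0.55. For Th the log2 change was -0.45 ± 0.60 (adjusted p = 0.732, edgeR) and for Slc6a3 -0.48 ± 0.71 (adjusted p = 0.763), each with an SE larger than the change. Without withdrawal rat 13 these were -0.28 ± 0.61 and -0.31 ± 0.73. Gabrd, the delta subunit of GABA-A receptors, had 26.7 CPM in ethanol rat 7 and 5.28 CPM in ethanol rat 8, against 0.519 to 1.24 CPM in withdrawal rats. Gabrg1, another subunit, had 80.1, 143 and 169.9 CPM in withdrawal rats and 163, 169.6 and 183 CPM in chronic ethanol rats, and 5 of 6 withdrawal rats were below all chronic ethanol rats. Of 18 GABA receptor genes, 4 were lower at an unadjusted p under 0.05, both with all rats (5.95% of all genes) and without withdrawal rat 13 (6.81%).

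Grin2a, an NMDA receptor subunit, had 4.51, 10.8 and 14.7 CPM in withdrawal rats and 5.32, 7.53 and 9.61 CPM in chronic ethanol rats. Its log2 change was 0.45 ± 0.24, and 0.61 ± 0.19 (adjusted p = 0.174, edgeR) without withdrawal rat 13, the lowest value. Of the 22 tested glutamate receptor genes, 18 had a negative log2 change with all rats and 14 without withdrawal rat 13, with medians of -0.13 and -0.096. Slc1a2, the glial glutamate transporter, had 14.0, 27.2 and 48.6 CPM in withdrawal rats and 11.5, 15.5 and 20.8 CPM in chronic ethanol rats (log2 change 0.92 ± 0.28, adjusted p = 0.166, edgeR, and 0.75 ± 0.27 without withdrawal rat 13). It had the largest log2 change of 11 glutamate transport and metabolism genes, whose median was -0.080 with all rats and 0.0066 without withdrawal rat 13. Among stress and growth peptides, Bdnf had 10.3 ± 2.35 CPM in withdrawal rats and 11.0 ± 5.17 CPM in chronic ethanol rats, and Crh had 2.15 ± 0.662 and 1.76 ± 1.06 CPM in these groups (SD, n = 6). Npy had 0 counts in every library. Mt2A, a metallothionein that glucocorticoids induce, had 5.42, 6.62 and 12.9 CPM in withdrawal rats and 7.86, 13.0 and 21.0 CPM in chronic ethanol rats (log2 change -0.75 ± 0.27, adjusted p = 0.230, edgeR, and -0.94 ± 0.26 without withdrawal rat 13). It had the lowest log2 change of the 18 tested glucocorticoid induced genes. Of these, 12 had a positive and 6 a negative log2 change in both fits, with medians of 0.084 and, without withdrawal rat 13, 0.15.

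Chromatin enzymes showed small differences. Of 22 histone acetylation genes, 7 were higher at an unadjusted p under 0.05 (9.38% of all genes), and 6 without withdrawal rat 13 (7.14%). The list's median log2 change was 0.059 with all rats and -0.014 without withdrawal rat 13, where 13 of the 22 were negative. Kat7 and Kat6a, both acetyltransferases of the MYST family, had log2 changes of 0.17 ± 0.05 and 0.30 ± 0.09, and 5 of 6 withdrawal rats were above all chronic ethanol rats for each. Hdac2, a histone deacetylase, had 65.8, 70.2 and 139 CPM in withdrawal rats and 63.4, 65.5 and 68.6 CPM in chronic ethanol rats, with the 139 CPM in withdrawal rat 13 (log2 change 0.31 ± 0.14, and 0.10 ± 0.04, adjusted p = 0.286, edgeR, without it). Ezh2, the histone H3 lysine methyltransferase of the Polycomb complex, had 11.2, 13.9 and 23.4 CPM in withdrawal rats and 9.66, 10.5 and 12.7 CPM in chronic ethanol rats (log2 change 0.48 ± 0.14, and 0.31 ± 0.09 without withdrawal rat 13). Of 26 DNA and histone methylation genes, 6 were higher at an unadjusted p under 0.05 with all rats (9.38% of all genes) and 3 without that rat, a share near the 7.14% of all genes.

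Nuclear genes of oxidative phosphorylation had a median log2 change of -0.073 over 91 tested genes, and -0.091 without withdrawal rat 13. With the first index as a term these medians were -0.029 and -0.035. At an unadjusted p under 0.05, 17 were lower with all rats (5.95% of all genes) and 27 without withdrawal rat 13 (6.81%), and 0 were higher (9.38% and 7.14%). Ndufc1, of complex I, had 63.2, 68.8 and 76.0 CPM in withdrawal rats and 77.1, 81.1 and 84.3 CPM in chronic ethanol rats, with no overlap (log2 change -0.25 ± 0.05, adjusted p = 0.0584, edgeR, without withdrawal rat 13). Cox6b2, of complex IV, had a log2 change of -0.76 ± 0.16 without that rat and -0.46 ± 0.23 with it, the lowest of the list in both fits. Its level was low, at no more than 1.68 CPM in withdrawal rats, the value of withdrawal rat 13. Of the antioxidant enzymes, Prdx6, a peroxiredoxin, had 86.6, 129 and 147 CPM in withdrawal rats and 150.3, 157 and 184 CPM in chronic ethanol rats, again with no overlap (log2 change -0.40 ± 0.10, adjusted p = 0.123, edgeR, and -0.32 ± 0.07, adjusted p = 0.0730, without withdrawal rat 13). Gstp1, a glutathione transferase, had 91.3 CPM in withdrawal rat 13, below all chronic ethanol rats, and the other 5 withdrawal rats were above all of them. Tef, a clock output factor, had a log2 change of -0.34 ± 0.10 (adjusted p = 0.166, edgeR).

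**Figure D5:**
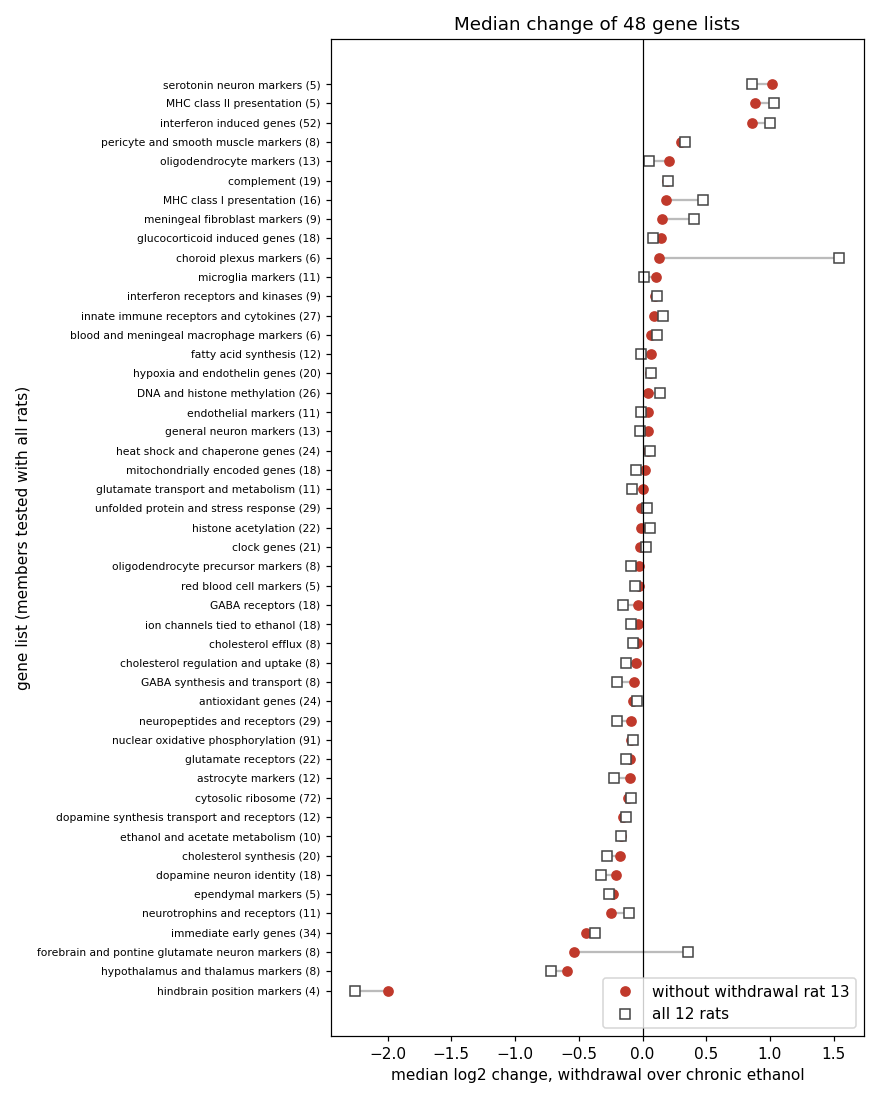
Median log2 change in withdrawal over chronic ethanol (horizontal axis) of 48 gene lists (rows, with the number of members tested), without withdrawal rat 13 (filled circles) and with all 12 rats (open squares). The pineal list, at 6.34 with all rats and 0.17 without withdrawal rat 13, is left off for scale, and the choroid plexus list moves from 1.54 with all rats to 0.13 without that rat.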

How the data were processed

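RNA of the ventral tegmental area was measured in 18 rats as stranded, paired-end libraries, per the labels. The authors deposited counts, 1 for each fragment assigned to a gene. They made them with featureCounts 1.5.0, per the file headers, with reverse strand, both ends mapped to 1 chromosome, and multiple matches left out. STAR 2.5.2a, Rnor_6.0, R 3.3.3 and limma are named in the submitters' processing notes. Of 38445 genes in the files, 29322 matched a symbol in RefSeq's table for another assembly, which served for names and promoters only. The unmatched 9123 held 1.21 to 1.86% of a library's counts.

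After filterByExpr and TMM scaling, the quasi-likelihood F-test of edgeR 4.0.16 (R 4.3.3) was run over all 18 libraries, and over 17 without withdrawal rat 13. All genes that passed the filter, 17637 and 17751 in these 2 fits, entered the fit and the Benjamini-Hochberg adjustment. The SE was calculated back as the size of the log2 change over the square root of F. With all rats the common biological coefficient of variation came to 0.270, and to 0.196 without withdrawal rat 13. P-values measure the spread between rats, which the labels number singly. No 2 libraries of a group were copies, since chi-square per degree of freedom was at least 12.4 for each pair. Floors of 3 counts cover counting error only, since reads carry no molecular identifiers.

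The comparison, lists and tests were chosen with earlier results of these data known. Genes in the text were taken by a rule: called genes, the lowest p in each direction, the members of each of 49 lists with the lowest p, and a fixed set. A further 17 genes were added after their values were seen: Rsad2, Irf9, Isg15, Bst2, Usp18, Eif2ak2, RT1-A1, B2m, C3, Cxcl10, Hmgcs1, Fdps, Dhcr7, Vegfa, Gja1, S100a9 and Socs1. Some genes are not reported here. The lists of oxidative phosphorylation and ribosome genes hold protein-coding genes only, since pseudogenes were taken out after the values were seen. Alternatives were DESeq2 1.42.0 and limma-voom (limma 3.58.1), RLE factors, robust fitting, no filter or one of 1 CPM in 6 libraries, a fit to the compared groups only, a term for the first index of the library names, a limit of 0.10 on the adjusted p, and leaving out each rat.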

Additional observations from a re-analysis of the deposited data

Results flagged for a closer look

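In 264 groups of 6 rats (83 genes and 49 lists), 61 values stood apart from the other 5 of their group, with a gap, divided by the range of the group, above Dixon's 95% critical value. Chance gives about 1 in 20 groups. The explanations were not tested.

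Withdrawal rat 13 stood apart in most of them. Its level was high for Taldo1 (237.8 CPM), Rbpj (88.68 CPM), Ascc3 (55.42 CPM), Tfdp1 (48.45 CPM), Akap8l (305.0 CPM), Odc1 (126.1 CPM), Grhpr (28.86 CPM), Oga (360.2 CPM), Nlrc5 (11.13 CPM), B2m (697.6 CPM), Fos (27.29 CPM), Fosb (3.621 CPM), Hdac2 (138.8 CPM), Ezh2 (23.4 CPM), Tph1 (14990.0 CPM), Gch1 (407.5 CPM), Tm7sf2 (83.2 CPM) and Cox6b2 (1.675 CPM). It was low for Efhd1 (39.69 CPM), Edil3 (210.7 CPM), Gabrg1 (80.06 CPM), Olig2 (34.88 CPM) and Gstp1 (91.33 CPM). As mean log2 CPM of a list, it was high for interferon receptors and kinases (4.737), unfolded protein and stress response (6.225), histone acetylation (6.168), DNA and histone methylation (5.839), choroid plexus (4.999), pineal (8.808) and forebrain and pontine glutamate neuron markers (2.453). It was low for fatty acid synthesis (6.658), GABA synthesis and transport (7.63), GABA receptors (4.506), glutamate receptors (4.673), neuropeptides (2.252), oligodendrocyte markers (8.368), oligodendrocyte precursors (5.613) and general neuron markers (7.817).

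Of the other withdrawal rats, rat 15 was high for Edn1 (5.935 CPM), rat 16 for RT1-Bb (26.94 CPM), and rat 17 was low for the mean log2 CPM of dopamine synthesis, transport and receptor genes (3.573).

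Ethanol rat 11 was high for Fos (122.9 CPM), Fosb (76.75 CPM), Npas4 (40.37 CPM) and the mean log2 CPM of immediate early genes (4.113), and low for Odc1 (71.51 CPM) and Oga (238.3 CPM), and it stood apart for interferon receptors and kinases (4.583). Ethanol rat 8 was low for the mean log2 CPM of dopamine synthesis genes (3.99), dopamine neuron identity (3.06) and GABA synthesis and transport (7.791), and high for hindbrain position (3.801) and forebrain and pontine glutamate neuron markers (2.745). It also stood apart for hypoxia and endothelin genes (4.971). Ethanol rat 10 stood apart for glutamate transport and metabolism (6.821), oligodendrocyte precursors (6.641), microglia (4.915) and general neuron markers (8.066). Ethanol rat 7 was high for Gabrd (26.71 CPM) and hypothalamus and thalamus markers (4.702), and ethanol rat 12 was low for Cxcl10 (0.1109 CPM).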

How the results depend on the processing

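With all rats, 0 genes were called with RLE factors, no filter, a stricter filter, robust fitting, limma-voom, the compared groups alone or the index term, where 1908 to 3495 genes had an unadjusted p under 0.05. DESeq2 called 294, a limit of 0.10 gave 83, and leaving out rats 5, 8, 13 and 17 gave 2. Leaving out single rats gave 0 to 24: 22 without withdrawal rat 13, 24 without withdrawal rat 18, 12 without ethanol rat 11, 2 without withdrawal rat 15, 1 without control rat 3, 1 without withdrawal rat 14 and 1 without withdrawal rat 16. Without withdrawal rat 13, where 22 genes were called, DESeq2 called 431, limma-voom 13, the compared groups alone 0, the index term 0 and a limit of 0.10 gave 237. Leaving out 1 more rat, an alternative chosen after the data were seen, gave 0 to 135. The cause of these differences was not tested.

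In the alternative fits where list medians were taken, that of the interferon induced genes lay between 0.72 and 1.10. That of cholesterol synthesis lay between -0.34 and -0.10, beside a difference of -0.094 among rats that share a first index without withdrawal rat 13. List medians were not taken for DESeq2, limma-voom or robust fitting. With withdrawal rat 13 out, they were not taken for the compared groups alone or with 1 more rat left out. The value of -0.10 came with the index term and withdrawal rat 13 out, also added later. With single rats left out, the log2 change ranged from -1.44 to 0.37 for Fos, -3.60 to 0.48 for Fosb, -0.23 to 0.17 for Bdnf and -0.51 to 0.78 for Tm7sf2. It turned direction for Fos (0.37) and Fosb (0.48) without ethanol rat 11, for Tm7sf2 without withdrawal rat 13 (-0.51) and without rats 5, 8, 13 and 17 (-0.32), and for Bdnf with the index term (0.020), without ethanol rat 8 (0.17), without withdrawal rat 13 (0.0014) and without rats 5, 8, 13 and 17 (0.31). Of the other values for named genes, 255 lost and 34 gained the threshold, and 1787 kept direction and threshold. Only the 21 named genes called without withdrawal rat 13 could lose it. The 1787 include the values of genes that were not called and stayed so, and are no measure of how firm the calls are. With the index as a term the comparison rests on withdrawal rats 13 to 16 and chronic ethanol rats 9 to 12. No paired analysis was possible because each rat number occurs in 1 group only. Depth limits genes under about 0.101 CPM.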

Other observations

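Serotonin neuron markers had a median log2 change of 0.86 over 5 tested genes, and 1.02 without withdrawal rat 13. In both fits 0 of 5 had an unadjusted p under 0.05, where 15.3% and 13.9% of all genes did in either direction. They summed to 14.2 to 144 CPM in withdrawal rats and 4.09 to 103 CPM in chronic ethanol rats. Withdrawal rats 15 and 17 had 144 and 118 CPM and ethanol rat 9 had 103 CPM, where the others had 14.2 to 65.9 CPM in withdrawal and 4.09 to 24.2 CPM in chronic ethanol. Pericyte and smooth muscle markers had a median log2 change of 0.33 over 8 genes, which was 0.093 without withdrawal rat 14. Red blood cell markers summed to 93.7 to 176 CPM in withdrawal rats, 53.1 to 237 CPM in chronic ethanol rats and 186 to 527 CPM in control rats. Genes of the cytosolic ribosome had a median log2 change of -0.091 over 72 tested members, and -0.11 without withdrawal rat 13. Hindbrain position markers had a median of -2.25 over 4 tested genes, and 3.07 without ethanol rat 8.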
